A study of Mus musculus with 6 samples.

Results

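Fatty acid elongases and desaturases are the enzymes that lengthen fatty acyl chains and put double bonds into them. The genes described here were chosen by name, as every row of the count table called Elovl1, Elovl4, Elovl5, Elovl6, Elovl7, Scd1, Scd2, Fads1, Fads2 or Fads3, which gave 10 of the 38803 genes of the table. These genes and the other gene lists below were chosen with earlier results of these data known. All 10 had counts in every library and all 10 passed the filter on low counts, so none is left out below. RNA was sequenced from 661W cells, a mouse line that the study treats as cone photoreceptor cells, which arose in a tumor of the retina and whose source animal carried SV40 T antigen. Serum-starved cultures were kept for 72 h in high-glucose DMEM without fetal calf serum. Serum-fed cultures were kept for the same 72 h in fresh high-glucose DMEM with 10% fetal calf serum. Both kinds of culture had first been grown for 48 h with 10% serum, and each of passages 24, 26 and 27 gave 1 culture of each kind, so n = 3 per condition, and the passages are given as independent experiments of the same line. Serum carries fatty acids and cholesterol as well as growth factors, and the design does not separate these.

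The carbon chain of palmitate, the product of fatty acid synthase, is extended at the endoplasmic reticulum by an elongation cycle whose first step, condensation with malonyl-CoA, is carried out by an Elovl enzyme. Stearoyl-CoA desaturases (Scd) turn saturated acyl-CoAs into monounsaturated ones such as oleoyl-CoA, while the front-end desaturases Fads2 and Fads1 act in turn, with Elovl5 between them, to make arachidonic acid and the precursors of docosahexaenoic acid from dietary fatty acids. Photoreceptor outer segments are rich in docosahexaenoic acid and in very long polyunsaturated chains made by Elovl4, and in liver many of these genes are targets of the sterol regulatory element binding proteins (SREBPs).

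On GRCm38, in GENCODE M21, 5 of the 10 genes lay on chromosome 19. Fads3 (chr19:10041569-10060110, plus strand), Fads2 (chr19:10062765-10101746, minus strand) and Fads1 (chr19:10182888-10196877, plus strand) followed each other, with 2654 bases between Fads3 and Fads2 and 81.1 kb between Fads2 and Fads1. Scd2 (chr19:44293674-44306864, plus strand) and Scd1 (chr19:44394455-44407879, minus strand) were 87.6 kb apart. Elovl6 lay at chr3:129532355-129638495 (plus strand), Elovl5 at chr9:77917364-77984519 (plus), Elovl4 at chr9:83778692-83806277 (minus), Elovl1 at chr4:118428093-118432953 (plus) and Elovl7 at chr13:108214404-108285683 (plus).

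Promoter sequence, from 250 bases before to 50 bases after a transcription start, was taken from RefSeq on GRCm38.p6 for 7 of the 10 genes, and 3 promoters are shown because the results turn on these genes: Elovl6 and Fads2, whose RNA was higher without serum, and Fads3, the neighbor of Fads2, whose RNA was not called. Capitals mark CCAAT or its reverse complement ATTGG, the box bound by NF-Y, a factor that acts together with SREBPs at many of their target promoters. The windows are chr3:129532136-129532435 for Elovl6 (plus strand), chr19:10101454-10101753 for Fads2 (minus strand) and chr19:10041298-10041597 for Fads3 (plus strand), each written from 5′ to 3′ along its gene.
Elovl6: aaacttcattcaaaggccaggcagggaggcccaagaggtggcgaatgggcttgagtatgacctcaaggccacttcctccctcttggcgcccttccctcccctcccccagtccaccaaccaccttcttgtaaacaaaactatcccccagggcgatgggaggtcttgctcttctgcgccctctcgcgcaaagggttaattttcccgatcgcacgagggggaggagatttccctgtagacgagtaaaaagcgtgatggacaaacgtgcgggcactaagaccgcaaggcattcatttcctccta
Fads2: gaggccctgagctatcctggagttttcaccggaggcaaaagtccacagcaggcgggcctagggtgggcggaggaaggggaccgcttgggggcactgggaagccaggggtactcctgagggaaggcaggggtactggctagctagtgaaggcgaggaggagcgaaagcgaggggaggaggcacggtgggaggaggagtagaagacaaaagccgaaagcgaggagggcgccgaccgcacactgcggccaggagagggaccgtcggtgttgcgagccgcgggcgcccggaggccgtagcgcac
Fads3: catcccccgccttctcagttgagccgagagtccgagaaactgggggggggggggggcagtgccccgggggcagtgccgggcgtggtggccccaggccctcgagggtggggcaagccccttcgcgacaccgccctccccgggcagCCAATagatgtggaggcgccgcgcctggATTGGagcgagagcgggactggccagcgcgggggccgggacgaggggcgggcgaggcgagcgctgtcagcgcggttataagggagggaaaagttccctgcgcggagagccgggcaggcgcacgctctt
The window of Fads3 held CCAAT once in each orientation, while the windows of Elovl6 and Fads2 held none. In GENCODE M21, however, Fads2 begins at chr19:10101746, so nearly all of its window lies inside the gene as annotated there. Almost no sequence before that start was searched for Fads2. Among the other promoters taken, those of Elovl4 and Elovl5 and 1 of the 2 of Elovl1 held it, and that of Elovl7 did not, against 37.4% of all 32851 promoters in the table. A sterol regulatory element was searched as TCACNCCAC on both strands and was in none of these 8 promoters of 7 genes (Elovl1 has 2), against 1.24% of all promoters. GGGCGG, the box bound by Sp1, was present in Fads2 and Fads3 and absent from Elovl6 (35.7% of all promoters), and the E-box CACGTG was in none of the 3 shown (7.15%). Outside these, GGGCGG was in promoters of Elovl1, Elovl4 and Elovl7, and CACGTG in those of Elovl4 and Elovl5. No promoter of Scd1, Scd2 or Fads1 was among the sequences used, although these genes were called higher too. Of the genes called higher, the search thus covered only Elovl6 and Fads2. These are matches of letters in a short window and describe the sequence alone.

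In serum-starved cells, 5 of the 10 enzymes had more RNA and 0 had less: Elovl6, both stearoyl-CoA desaturases (Scd1, Scd2) and the pair of front-end desaturases that make polyunsaturated fatty acids (Fads1, Fads2). Over all genes tested, 3.48% were called higher and 1.6% lower. As the 10 were chosen with earlier results known, setting them against all genes is a description and not a test. Fold changes of these 5 lay between 1.81 for Fads1 and 2.98 for Elovl6. For the same 5 genes every starved library lay above every fed library, as it did for 7.94% of all genes tested. The other 4 elongases and Fads3 were not called in either direction. Calls were made at an adjusted p under 0.05 in edgeR's quasi-likelihood test with the passage in the model and Benjamini-Hochberg adjustment over 16168 genes, and each log2 fold change sets serum-starved cells over serum-fed cells. The median log2 fold change of the 10 genes was 0.62, against −0.0011 over all genes. When the passage was left out of the model, edgeR called 0 of the 10 enzymes and 4 of all genes tested. At an adjusted p under 0.01, which 0.73% of all genes passed as higher, only Elovl6 was called among the 10.

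Libraries held 71970076 to 87178722 counts, and levels are given as counts divided by the total of a library and multiplied by 1000000 (CPM) or, wherever genes are compared with each other, as CPM per kilobase of summed exons in GENCODE M21 (RPKM). Where a library has no count for a gene, counting error alone leaves room for 3 counts, or 0.0344 to 0.0417 CPM. Of 12 cone markers, 3 reached 1 CPM in any library, with Arr3 (cone arrestin) and Rxrg at 0 in all 6, and the summed level of the 12 was 4.89 to 6.52 CPM in starved and 3.68 to 4.71 CPM in fed cells, with Guca1a called higher among the 5 tested. Rod markers were lower still (9 genes, 0.951 to 1.55 CPM in starved and 0.945 to 1.29 CPM in fed cells, 0 of the 4 tested called, Nrl, Nr2e3 and Cnga1 at 0). Fibroblast markers summed to 2010 to 6521 CPM in starved and 777 to 2519 CPM in fed cells, and 4 of the 6 tested, of 7 listed, were called higher. Col1a2 made up most of these sums, at 1714 to 5433 CPM in starved and 685 to 2281 CPM in fed cells. Lum had 5 counts over all libraries. Myoblast and muscle markers summed to 38.7 to 571 CPM in starved and 49.1 to 126 CPM in fed cells, and 5 of the 7 tested, of 8 listed, were called higher, with Myf5 at 0. Genes of both lists were thus called higher, as were 3.48% of all genes tested. The ranges of the sums of both lists overlapped between the conditions, and their part in the changes of the lipid genes was not tested. Adipocyte markers, of a cell type rich in Scd1, were near 0 (6 genes, 0.0899 to 0.338 CPM in starved and 0.174 to 0.514 CPM in fed cells, 0 of the 1 tested called, Plin1 and Cfd at 0). Those of Schwann cells and oligodendrocytes, which make abundant Scd2, were low (5 genes, 0 of the 3 tested called, 6.47 to 9.92 CPM in starved and 7.73 to 8.57 CPM in fed cells, Sox10 at 0). In bulk RNA, fewer cells of a type and less RNA per cell cannot be told apart.

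**Figure D1:**
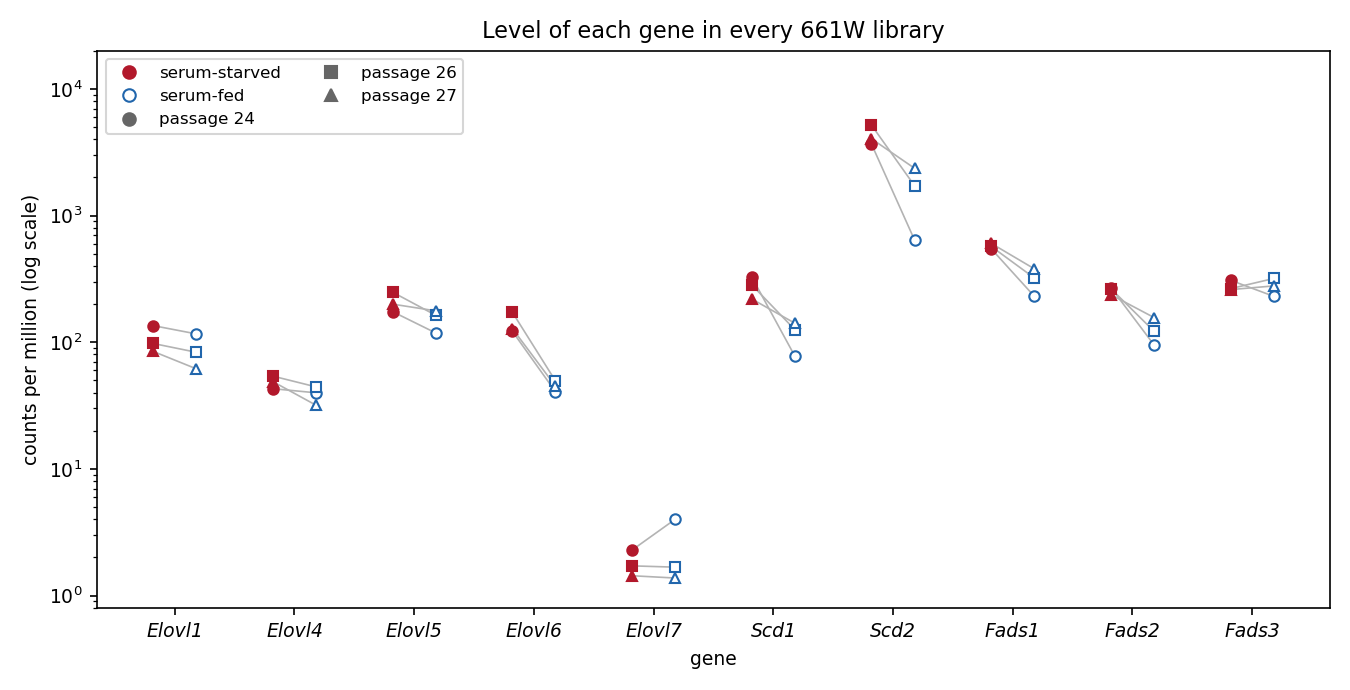
Level of each of the 10 genes in every library, in CPM on a log axis. Filled red symbols are serum-starved and open blue symbols serum-fed cultures, the shape gives the passage, and a gray line joins the 2 cultures of a passage. For Elovl6, Scd1, Scd2, Fads1 and Fads2 all starved symbols lie above all fed ones, while those of Fads3 and Elovl7 interleave.

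Elovl6, which extends palmitate to stearate, had the most similar ratios across passages of the 5 genes called. It stood at 122, 172 and 128 CPM in starved cells of passages 24, 26 and 27, against 40.6, 49.5 and 45.0 CPM in fed cells of the same passages. The lowest starved library was thus far above the highest fed library, and the ratio within passages was 3.00, 3.48 and 2.85. The fitted log2 fold change was 1.58 (standard error 0.12, 95% interval 1.29 to 1.86, adjusted p = 0.0031 from edgeR), which placed Elovl6 at rank 8 of 16168 genes by p. It kept an adjusted p under 0.05 when passage 24, 26 or 27 was left out (adjusted p = 0.00613, 9.04e-05 and 0.0118 from edgeR).

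Scd2, a stearoyl-CoA desaturase best known from mouse brain and from early skin development, had the most RNA of the 10 genes, by counts and per length. Its levels were 3667, 5175 and 4039 CPM in starved cells and 640, 1717 and 2360 CPM in fed cells of passages 24, 26 and 27. The SD was 786 CPM around a mean of 4294 CPM in starved cells and 869 CPM around 1572 CPM in fed cells. Relative to its mean, the spread was thus wider in fed cells, whose lowest library was that of passage 24. In starved cells Scd2 took 0.367%, 0.518% and 0.404% of all counts and held ranks 5, 2 and 3 among genes by count, against 0.0640%, 0.172% and 0.236% and ranks 178, 35 and 11 in fed cells. By edgeR the log2 fold change of Scd2 was 1.57 (standard error 0.31, 95% interval 0.85 to 2.29, adjusted p = 0.0355).

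Scd1, the stearoyl-CoA desaturase that dominates in mouse liver and fat, stood at 327, 284 and 219 CPM in starved cells and at 77.6, 126 and 141 CPM in fed cells. The groups did not overlap, although starved cells of passage 27 and fed cells of the same passage differed by a ratio of only 1.55, against 4.21 in passage 24. The log2 fold change was 1.24 (standard error 0.25, 95% interval 0.65 to 1.82, adjusted p = 0.0387 from edgeR). Of the 75-base windows of the Scd1 transcripts, 3.15% also occurred in other genes, among them Scd2, Scd3 and Scd4, and for Scd2 the share was 1.78%, and the remaining windows of both genes were found in no other gene of GENCODE M21.

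Per length, Scd2 made up 90.9%, 94.2% and 94.3% of the summed level of Scd1 and Scd2 in starved cells and 88.1%, 92.5% and 93.7% in fed cells. Scd2 RNA was therefore in excess of Scd1 RNA in all 6 libraries. The share was higher in starved cells of all 3 passages by 1.73 ± 1.16 percentage points (SD, n = 3), and an exact two-sided permutation test over the 3 within-passage differences gave p = 0.25, the smallest it can give.

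Fads2, which puts the first new double bond into linoleic and alpha-linolenic acid, was at 270, 265 and 237 CPM in starved cells and 95.3, 122 and 157 CPM in fed cells. All starved libraries lay above all fed ones. The fitted change on the log2 scale was 1.02 (standard error 0.18, 95% interval 0.60 to 1.43, adjusted p = 0.0252 from edgeR).

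Fads1, the desaturase whose product is arachidonic acid, was at 547, 570 and 603 CPM in starved cells and 230, 321 and 380 CPM in fed cells. Relative to the mean, its starved libraries were the most alike of all members (573 ± 28.2 CPM, SD, n = 3, against 311 ± 75.3 CPM in fed cells). On the log2 scale Fads1 was higher by 0.86 (standard error 0.15, 95% interval 0.50 to 1.21, adjusted p = 0.0265 from edgeR). Leaving out passage 27 ended the call of Fads1 (log2 fold change 0.98, edgeR adjusted p = 0.0628), which left 4 of the 10 genes called, while 5 were called without passage 24 and 5 without passage 26.

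Elovl5, the elongase that acts between Fads2 and Fads1, stood at 174, 248 and 200 CPM in starved cells and 118, 163 and 177 CPM in fed cells. Starved cells were higher within each passage, but starved cells of passage 24 lay just below fed cells of passage 27. The log2 fold change of 0.39 (standard error 0.13, 95% interval 0.08 to 0.70) had an unadjusted p of 0.0196 and did not pass after adjustment (adjusted p = 0.130 from edgeR). Of the 3 enzymes of this route Elovl5 was alone in not being called, and whether its change differs from those of Fads1 and Fads2 was not tested.

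Fads3, the remaining gene of the Fads cluster, whose product acts on sphingoid bases, was at 308, 265 and 260 CPM in starved cells and 230, 319 and 278 CPM in fed cells. The groups overlapped fully, with starved cells higher in passage 24 and lower in passages 26 and 27. The log2 fold change was −0.04 (95% interval −0.41 to 0.33, adjusted p = 0.910 from edgeR), so fold changes from 0.753 to 1.26 lie within the interval. The 2654 bases between Fads3 and Fads2 separate their 3′ ends, as the genes lie on opposite strands. Their 5′ ends are farther apart, at chr19:10041569 and chr19:10101746. Fads2 stood at 2.83, 2.17 and 1.51 times its fed level in the 3 passages while Fads3 stood at 1.34, 0.832 and 0.935 times.

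Ratios of neighboring genes were formed after these values had been seen and serve as a description. On the log2 scale, Fads2 over Fads3 was higher in starved cells by 1.05 ± 0.34 and Fads1 over Fads3 by 0.89 ± 0.17 (SD over 3 passages), in the same direction in all 3 passages. Among the elongases, Elovl6 over Elovl5 was higher by 1.19 ± 0.15 and Elovl6 over Elovl1 by 1.33 ± 0.26, again in all 3 passages. An exact permutation test gave p = 0.25 for each of these 4 ratios, which is the smallest that 3 pairs allow.

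**Figure D2:**
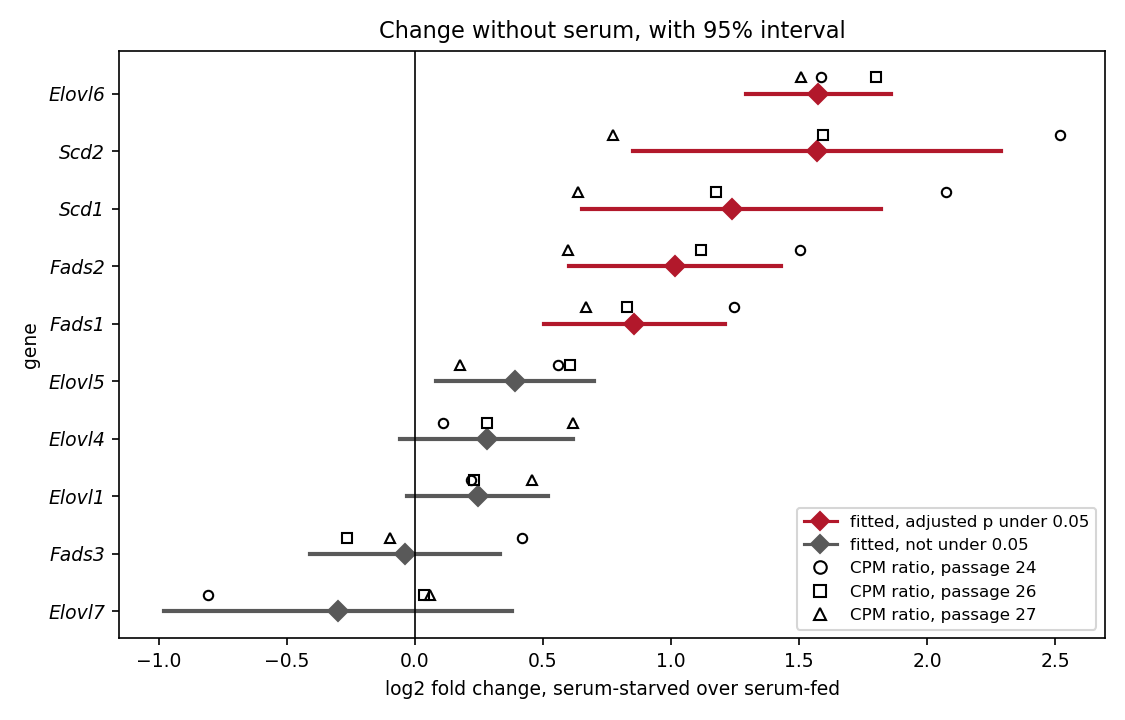
Log2 fold change of each of the 10 genes, serum-starved over serum-fed. Diamonds and bars are the edgeR estimate with its 95% interval (red where the adjusted p is under 0.05), and open symbols are the plain CPM ratios within passages 24, 26 and 27. In Scd1, Scd2, Fads1 and Fads2 the ratio of passage 24 lies farthest right, while the 3 log2 ratios of Elovl6 lie between 1.51 and 1.80.

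Elovl1, which makes the very long saturated and monounsaturated chains of sphingolipids, had 135, 97.7 and 84.6 CPM in starved cells and 116, 83.3 and 61.7 CPM in fed cells. The level was lower at each later passage in both conditions, and within each passage starved cells were slightly higher. The log2 fold change of 0.24 (95% interval −0.03 to 0.52) was not called (adjusted p = 0.258 from edgeR). Alone among the 10 genes, Elovl1 differed between passages in the same edgeR fit (adjusted p = 0.0226), where 14.0% of all genes did. Elovl1 and Cdc20, a gene of mitosis on the opposite strand, share 53 exon bases, and the counting was strand-specific.

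Elovl4, the elongase of very long polyunsaturated chains in photoreceptors, whose human counterpart is mutated in a dominant macular dystrophy, stood at 43.0, 54.0 and 48.9 CPM in starved cells and 39.9, 44.4 and 31.8 CPM in fed cells. The groups overlapped by 1 library on each side, and the log2 fold change was 0.28 (95% interval −0.06 to 0.62, adjusted p = 0.287 from edgeR). RNA of this gene was thus present in all 6 libraries. Of the 12 cone markers, 3 reached 1 CPM in any library, while 2, Arr3 and Rxrg, were at 0 in all 6.

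Elovl7, an elongase that acts mainly on saturated long chains in human cells, was scarce, at 2.29, 1.72 and 1.43 CPM in starved cells and 4.00, 1.68 and 1.38 CPM in fed cells. Both conditions were alike in passages 26 and 27, and the estimate of −0.30 (95% interval −0.98 to 0.38, adjusted p = 0.575 from edgeR) rested on passage 24: without that passage the log2 fold change was 0.0050.

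Per length, the order of the 10 genes differed between the conditions. In starved cells it ran Scd2 (786 RPKM), Fads1 (119), Fads2 (78.1), Fads3 (73.2), Elovl5 (58.9), Scd1 (56.5), Elovl1 (38.8), Elovl6 (21.9), Elovl4 (16.1) and Elovl7 (0.452), as means of 3 libraries. In fed cells it ran Scd2 (288 RPKM), Fads3 (72.7), Fads1 (64.5), Elovl5 (43.4), Fads2 (37.8), Elovl1 (31.9), Scd1 (23.5), Elovl4 (12.8), Elovl6 (7.01) and Elovl7 (0.586). Neighbors in these orders were often not separated by their libraries: in starved cells Fads2 spanned 72.0 to 81.9 RPKM and Fads3 68.6 to 81.3 RPKM, and Elovl5 spanned 49.5 to 70.5 RPKM and Scd1 44.9 to 66.8 RPKM. Elovl6 and Elovl4 changed places between the conditions, with Elovl6 at 19.0 to 26.8 RPKM above Elovl4 at 14.2 to 17.8 RPKM in starved cells and at 6.32 to 7.70 RPKM below Elovl4 at 10.5 to 14.7 RPKM in fed cells.

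Within the summed RPKM of the 5 elongases, Elovl6 made up a mean of 16.0% in starved and 7.32% in fed cells. Elovl5 was the largest part on average (43.2% in starved and 45.5% in fed cells), followed by Elovl1 (28.7% and 33.2%) and Elovl4 (11.8% and 13.3%). In passage 24, however, Elovl1 was the largest part, at 37.3% in starved and 44.1% in fed cells, with Elovl5 at 37.2% and 34.7%. Within the summed RPKM of the 3 Fads genes, Fads1 made up 44.1% in starved and 36.6% in fed cells and Fads2 28.8% and 21.5%. Fads3 accounted for 27.1% of that sum in starved and 41.9% in fed cells, while its own CPM was about the same in both. These shares follow from the levels above and were not tested separately.

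**Figure D3:**
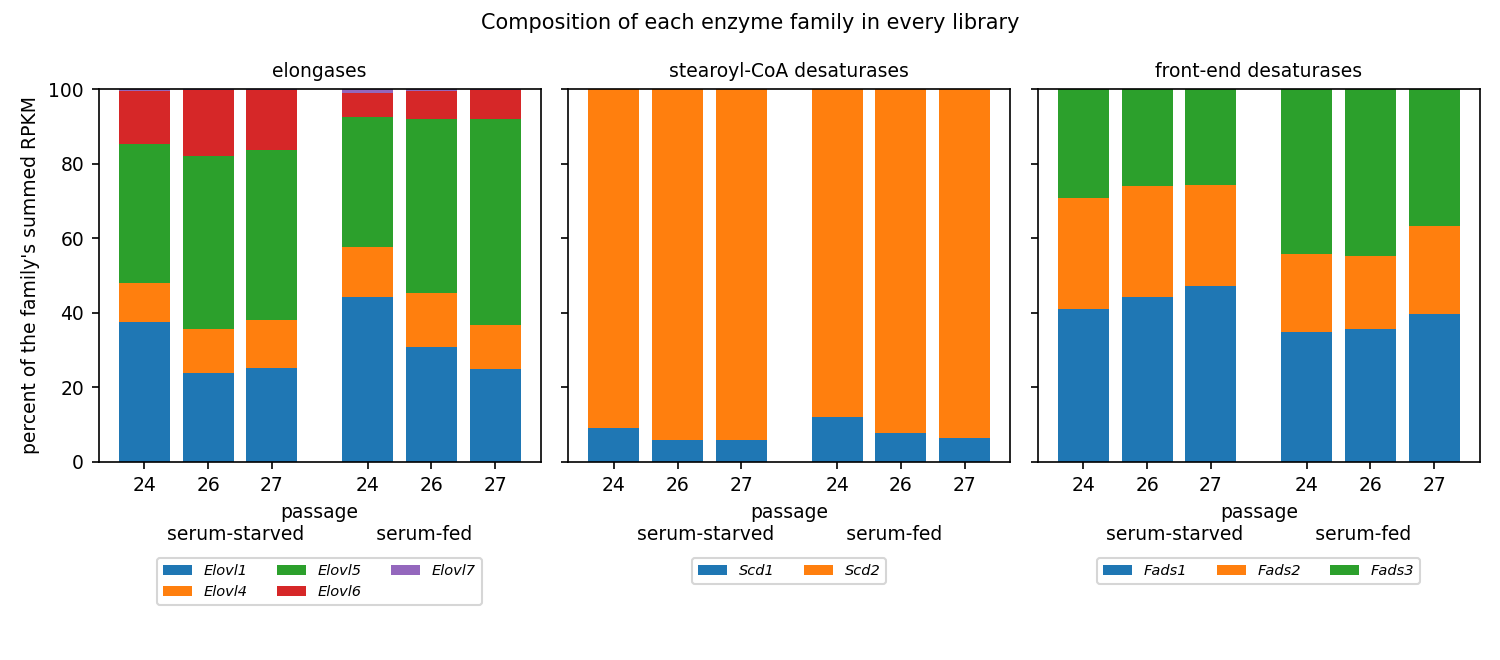
Percent of the summed RPKM of each enzyme family that each gene takes in every library, with serum-starved cultures left of serum-fed ones and passages 24, 26 and 27 within each. Elovl6 takes 14.3% to 17.7% of the elongases in starved and 6.53% to 7.72% in fed cells, and Fads3 takes 25.8% to 29.4% of the front-end desaturases in starved and 36.7% to 44.7% in fed cells.

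For Scd2, Scd1, Fads2 and Fads1 the measured ratio of starved to fed cells was smaller at each later passage. Scd2 stood at 5.73, 3.01 and 1.71 times its fed level in passages 24, 26 and 27, Scd1 at 4.21, 2.26 and 1.55 times, Fads2 at 2.83, 2.17 and 1.51 times and Fads1 at 2.37, 1.77 and 1.59 times. This downward order held for these 4 of the 5 genes called, while 15.5% of all 562 genes called higher had it. In the same 4 genes the fed level was lowest in passage 24 and highest in passage 27, an order that 5 of the 10 genes and 31.9% of all genes tested showed. The fed level is the denominator of the ratio, so the order of the ratios and that of the fed levels are not independent. No member but Elovl1 differed between passages by the test, and with 1 culture of each kind per passage a difference in effect between passages could not be tested. The 10 genes together made up 5596, 7133 and 5821 CPM in starved and 1593, 2947 and 3633 CPM in fed cells, of which Scd2 accounted for 65.5%, 72.6% and 69.4% in starved and 40.2%, 58.3% and 65.0% in fed cells. Without regard to the test, 8 of the 10 genes were higher in starved cells of all 3 passages by CPM, as were 27.6% of all genes tested.

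Other members of these families had few counts, with the most in Fads6. Elovl2, which elongates the precursors of docosahexaenoic acid and is abundant in retina, had 2 counts in all, both in fed cells of passage 24. Elovl3 had 109 counts and Scd3 30 over the 6 libraries. Scd4 reached 0.938, 1.08 and 0.631 CPM in starved cells and 0.222, 0.617 and 0.498 CPM in fed cells (log2 fold change 0.97, edgeR adjusted p = 0.191), with no overlap between the groups and no call. Fads6, a gene related to the Fads family whose substrate is not firmly known, had 1469 counts (log2 fold change 0.72, edgeR adjusted p = 0.140). Of these 5 genes, 3 were tested and 0 were called, 2 of them at an unadjusted p under 0.05. At that level 2122 of all 16168 genes tested were higher and 1800 lower.

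The steps after condensation in the elongation cycle are carried out by the ketoacyl reductase Hsd17b12, the dehydratases Ptpla, Ptplb, Ptplad1 and Ptplad2 (now named Hacd) and the enoyl reductase Tecr. All 6 of these genes tested had positive log2 fold changes, with a median of 0.37, but 0 were called, with 3 at an unadjusted p under 0.05. For comparison, 8057 of all 16168 genes tested had positive changes, 2122 were higher at that unadjusted p and 5.07% were called. Tecr was closest, at 345, 341 and 296 CPM in starved cells and 185, 210 and 224 CPM in fed cells (log2 fold change 0.61, edgeR adjusted p = 0.0504), without overlap. Hsd17b12 (0.46), Ptplad2 (0.64) and Ptplad1 (0.27) had adjusted p-values of 0.0929, 0.0929 and 0.228 from edgeR. DESeq2 called 3 of the 6 higher and limma-voom 1. Tecrl had 1 count.

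Cytochrome b5 and its reductases pass electrons to the desaturases, and none of their genes was called. Of 6 tested, 0 were called higher and 0 lower, with 0 and 1 at an unadjusted p under 0.05 and 0 by DESeq2 or limma-voom in either direction. Cyb5b, an outer mitochondrial membrane form, had a log2 fold change of 0.20, and the reductase genes Cyb5r1, Cyb5r2 and Cyb5r4 had −0.50, −0.68 and −0.20.

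Genes that supply the substrate were higher in part. Of 14 genes of palmitate synthesis and acyl-CoA formation, 5 were called higher and 0 lower, against 3.48% and 1.6% of all genes tested. This list too was chosen with earlier results known. The median log2 fold change of the 14 was 0.43. Fasn, the fatty acid synthase, was at 952, 1002 and 677 CPM in starved cells and 414, 317 and 336 CPM in fed cells (log2 fold change 1.23, edgeR adjusted p = 0.0097). Acss2, which makes acetyl-CoA from acetate, averaged 37.2 CPM in starved and 8.96 CPM in fed cells (log2 fold change 1.96, edgeR adjusted p = 0.0220). The acyl-CoA synthetase gene Acsl3 (1.19, adjusted p = 0.0220), the ATP citrate lyase gene Acly (0.94, adjusted p = 0.0293) and Acsl4, a synthetase that prefers arachidonic acid (0.61, adjusted p = 0.0441), were also higher by edgeR, the last named after its values were seen. Acaca (0.49, adjusted p = 0.118) and Acsl5 (−0.38, adjusted p = 0.111) were not called by edgeR and are likewise named after their values were seen. With no passage in the model 0 of these 14 were called.

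Among 17 tested genes of transcriptional control of these enzymes (SREBPs with the proteins that process them, liver X, retinoid X and PPA receptors and their partners), 2 were called higher and 1 lower, with a median of 0.08. Insig1, which holds SREBPs in the endoplasmic reticulum and is itself one of their targets, was at 330, 397 and 291 CPM in starved cells and 63.5, 64.2 and 82.4 CPM in fed cells (log2 fold change 2.22, edgeR adjusted p = 0.0031). Srebf2, which encodes the SREBP of sterol synthesis, averaged 425 ± 37.1 CPM in starved and 223 ± 62.3 CPM in fed cells (SD, n = 3), with a log2 fold change of 0.91 and an edgeR adjusted p = 0.0173. Srebf1, which encodes the SREBP of fatty acid synthesis, was at 181, 217 and 174 CPM in starved cells and 87.5, 124 and 144 CPM in fed cells, and was not called (log2 fold change 0.65, edgeR adjusted p = 0.0648). It is named after its values were seen. Thrsp, a lipogenic regulator, averaged 0.432 CPM in starved and 0.0488 CPM in fed cells (log2 fold change 2.88, edgeR adjusted p = 0.0628). With no passage in the model 1 of the 17 genes was called higher. In the reported fit, 3.48% of all genes tested were called higher and 1.6% lower.

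Pparg, which encodes the nuclear receptor of fat storage, fell to 6.23, 5.77 and 5.57 CPM in starved cells, against 13.0, 10.1 and 8.38 CPM in fed cells (log2 fold change −0.87, edgeR adjusted p = 0.0497). The groups did not overlap, but the call was lost with RLE size factors, with no passage in the model and without any 1 of the 3 passages, each of which left 0 of the 17 genes lower.

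Genes that place the products into lipids were mostly not called. Of 13 phospholipid acyltransferase genes, 0 were called higher and 0 lower (2 and 2 at an unadjusted p under 0.05, and 1 and 1 by DESeq2), with a median of −0.0050. Lpcat3, which puts polyunsaturated chains into phospholipids, had a log2 fold change of 0.52 and an edgeR adjusted p = 0.106, Mboat2 0.51, Agpat3 −0.53 and Agpat1 −0.37. Of 10 genes of ceramide synthesis tested, 1 was called higher and 0 lower, with a median of 0.11: the ceramide synthase gene Cers4 was at 55.5, 78.4 and 65.9 CPM in starved cells and 32.0, 30.8 and 30.7 CPM in fed cells (log2 fold change 1.02, edgeR adjusted p = 0.0126). Its call was lost without passage 27 and with no passage in the model. Cers2, the synthase for very long acyl chains, which Elovl1 supplies, had −0.28, and Cers3 and Cers5 had −0.67 and 0.17, none of them called.

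**Figure D4:**
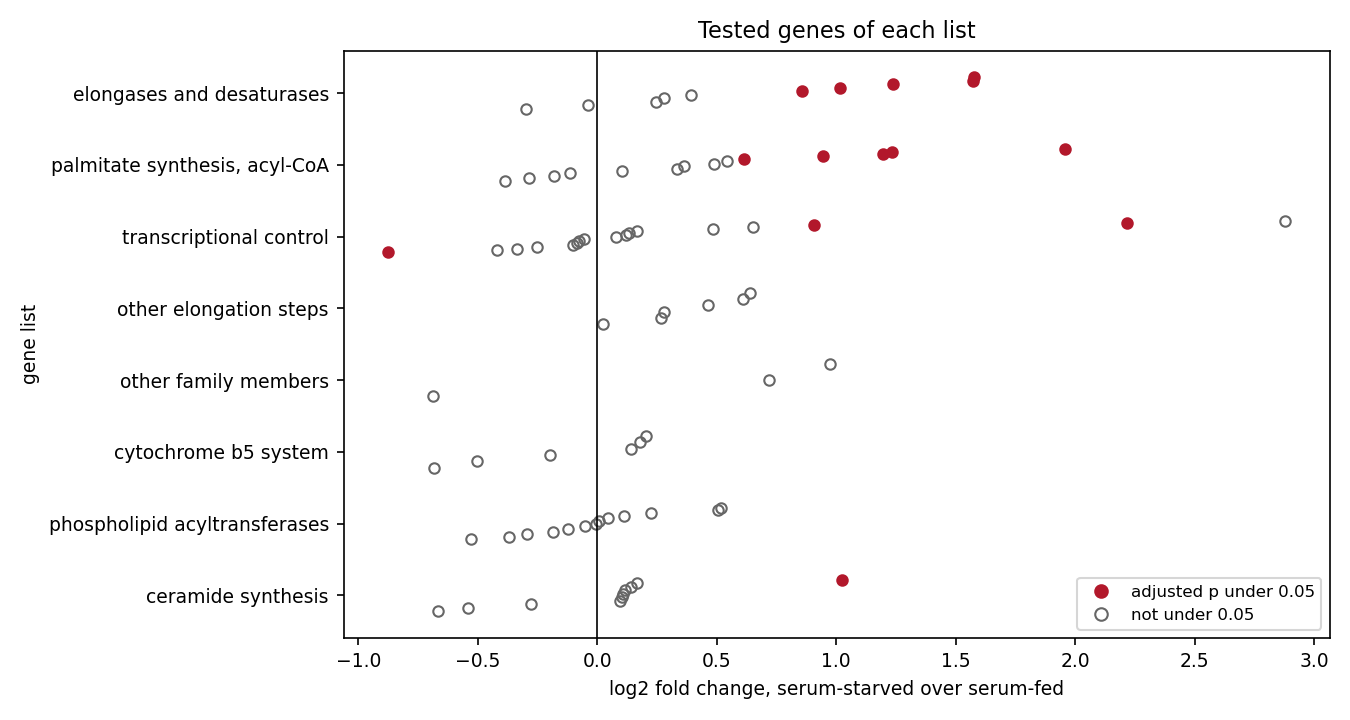
Log2 fold change, serum-starved over serum-fed, of every tested gene of 8 lists, 1 point per gene, red where the adjusted p from edgeR is under 0.05. The elongases and desaturases and the palmitate synthesis and acyl-CoA list hold 5 red points each, all right of 0, while the cytochrome b5, other elongation step, other family and phospholipid acyltransferase lists hold none.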

How the data were processed

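Libraries were stranded, polyA-selected and read as single 75 bp ends. Raw counts per gene were deposited by the authors, who had mapped the reads with STAR (GRCm38/mm10) and used HTSeq with its union rule and the reverse strand setting, with no normalization. The sources used here give no versions of these tools. A deposited table of the authors' own DESeq2 comparison (fold changes and p-values) was not used.

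Of 38803 genes, 27 with names turned into dates were left out (0.223% to 0.301% of a library's counts). Mitochondrial genes took 1.49% to 2.04% of the counts. edgeR's quasi-likelihood F-test was run on the remaining counts after filterByExpr (count minimum 10, 16168 genes) and TMM (factors 0.941 to 1.04), with passage and condition in the model and Benjamini-Hochberg adjustment over all genes tested. The passage was kept as a block because the labels tie the cultures of a passage, and deviations from the condition means correlated within passages at 0.675, 0.273 and 0.605. Between passages the correlations ran from −0.591 to 0.251. The highest, between starved cells of passage 26 and fed cells of passage 27, was close to that within passage 26. Alternatives were RLE size factors, no filter, no block, DESeq2, limma-voom, leaving out each passage and an adjusted p under 0.01. The tools were tested on simulated data that held no passage effect, so the use of the passage as a block was not examined there.

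All 10 members are named, with up to 4 genes of smallest p from each other list and every gene of the other family members. The members and lists were chosen with earlier results of these data known. Versions used were Python 3.11.15 with numpy 2.4.6, pandas 2.3.3, matplotlib 3.10.9 and scipy 1.17.1, and R 4.3.3 with limma 3.58.1, DESeq2 1.42.0 and edgeR 4.0.16.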

Additional observations from a re-analysis of the deposited data

How the results depend on the processing

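Of the 10 members, 5 were called higher with RLE size factors, no filter on low counts, DESeq2 and limma-voom, 4 to 5 with a passage left out, 1 at an adjusted p under 0.01 and 0 without the block on the passage. Without the block adjusted p-values from edgeR were 0.0640 for Elovl6, 0.249 for Fads2, 0.270 for Scd1, 0.329 for Fads1 and 0.478 for Scd2, and 4 genes were called higher of all tested, with 1347 at an unadjusted p under 0.05. Across the 8 alternatives the log2 fold change lay between 1.51 and 1.63 for Elovl6, 1.14 and 1.997 for Scd2, 0.86 and 1.57 for Scd1, 0.81 and 1.25 for Fads2 and 0.70 and 0.98 for Fads1. Estimates near 0 turned sign for Elovl7 without passage 24 (leaving out each passage gave −0.45 to 0.0050) and for Fads3 without passage 26 (0.12) or 27 (0.019), with −0.22 without passage 24. Members that differed between passages numbered 1 in the reported fit and 2 without a filter or with DESeq2. Over all genes, edgeR called 562 higher and 258 lower with the block, DESeq2 1144 and 884, no filter 1106 and 705, limma-voom 635 and 335, and leaving out a passage 271 to 863 and 63 to 493.

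In the other lists, genes of the elongation cycle called higher numbered 2 without a filter, 3 with DESeq2, 1 with limma-voom and 0 to 1 with a passage left out. Genes of transcriptional control called higher numbered 5 without a filter, 5 with DESeq2 and 1 without the block, and those lower numbered 0 with RLE size factors, without the block and with any passage left out. Without the block 0 palmitate synthesis and 0 ceramide genes were called, and ceramide genes numbered 0 to 1 with a passage left out. Phospholipid acyltransferase genes numbered 1 higher and 1 lower with DESeq2, 1 lower without a filter and 0 to 1 lower with a passage left out, and cytochrome b5 genes 0 to 1 lower with a passage left out. The causes were not tested, except that leaving out a passage leaves fewer samples. Depth limits Elovl2, Scd3 and Tecrl, with 2, 30 and 1 counts. With 3 cultures per condition of 1 cell line, p-values speak for these passages.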
